A study of Danio rerio with 6 samples.

Results

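In a comparison of zebrafish ovarian follicles with and without intact ybx1, 79 genes stood out because the number that divides their count in the authors' normalization differed between the genotypes. This number, the factor, was taken as count over normalized value in each library, divided by the median factor of that library, and given in log2, so that 0 is a library's common factor and a positive value lowers the normalized count. Members were chosen by these values: a count in all 6 libraries, a mean count of at least 200, a mean factor that differed between the genotypes by at least 0.2 with no overlap between their libraries, and a ratio of mean CPM (counts scaled to a common library total, the usual CPM unit) between 0.5 and 2. Of 10454 genes that met the count criteria, 79 (0.756%) were members, of 32057 genes listed. The factor was higher in the mutant in 44 of them and lower in 35.

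A gene usually gives several transcripts, which differ in promoter, exons and poly(A) site and so in length. More fragments come from a long transcript than from a short one, and a gene that changes its mixture of transcripts can change its count with no change in the number of its molecules. As background, DESeq2 accepts a factor for each gene and library in place of a single one per library, and a mean transcript length is a common source of it. Whether that source was used here is not given in the sources used here, and transcripts were not analysed here. Ybx1 is a Y-box protein with a cold-shock domain, a family known for packaging mRNA and controlling its translation and stability, in growing oocytes among other cells, and its mammalian homologue also takes part in splicing.

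Follicles of the AB strain at the pre-vitellogenic (PV) stage, before yolk protein is taken up, were compared between 3 libraries of wild type (ybx1+/+) and 3 of the homozygous mutant (ybx1-/-). The design text speaks of a histological arrest of follicles on the way from PV to the next stage, EV. The labels do not give the age of the fish, the kind of mutation, or whether a library held follicles of 1 fish or of several, so the spread between replicates may be technical. Library totals ran from 16600019 to 37764782 counts. These totals bear on counting error only, and libraries of 1 genotype differed beyond that error. The ybx1 transcript itself was at 276, 264 and 298 CPM in wild type and at 252, 241 and 229.7 CPM in the mutant (replicates 1 to 3 in order). The RNA was thus lower in each mutant library but still read, and its factors were within 0.01 of 0 in every library. Oocyte markers were read in all libraries, with a summed level of 14122 to 15264 CPM in wild type and 14786 to 15841 CPM in the mutant over 19 genes. Markers of blood, vessels and stroma were low but differed, at 99.6 to 103 CPM in wild type and 162 to 171 CPM in the mutant over 16 genes, of which none was at 0 throughout; edgeR called 11 of the 14 tested higher and 1 lower in the mutant. Their part in the results below was not tested, and in bulk RNA more cells of a type and more RNA per cell cannot be told apart.

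Factors that differ by genotype were uncommon. Of the 10454 genes, in 5740 (54.9%) all 6 log2 factors lay within 0.01 of 0. The median absolute difference between the genotypes was 0.0016 and its 90th percentile 0.065. A difference of at least 0.2 was found in 234 genes, of which 91 (0.87% of the 10454) had no overlap between genotypes and 143 did. The background for the absence of overlap alone is 970 genes, or 9.28%. Of the 91 genes, 12 had a CPM ratio outside 0.5 to 2 and were not members. Since the members were selected on these differences, the values below describe them and carry no test. The 6 log2 factors of each gene sum to 0, because the deposited factors of every gene have a geometric mean of 1. A gene that lies above 0 in one genotype therefore lies as far below it on average in the other, and the factors do not show in which genotype a gene departed from the usual.

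The threshold cut through a continuum. The nearest genes inside it were NCAPG2 with a factor difference of -0.200, TAX1BP1 with 0.203 and ASTN1 with -0.204 (mutant minus wild type). The nearest outside were PTPRZ1, ppfibp2b and LOXL3, each with 0.198. Over the members the median absolute difference was 0.28 and the greatest 0.90. In 30 members the gap between the genotypes was wider than the range of factors within either one, and the gap was at least 0.2 in 24. In 17 members it was under 0.05. The widest gaps were those of FEN1 (0.72), higd1a (0.59) and NDUFAF3 (0.51).

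**Figure D1:**
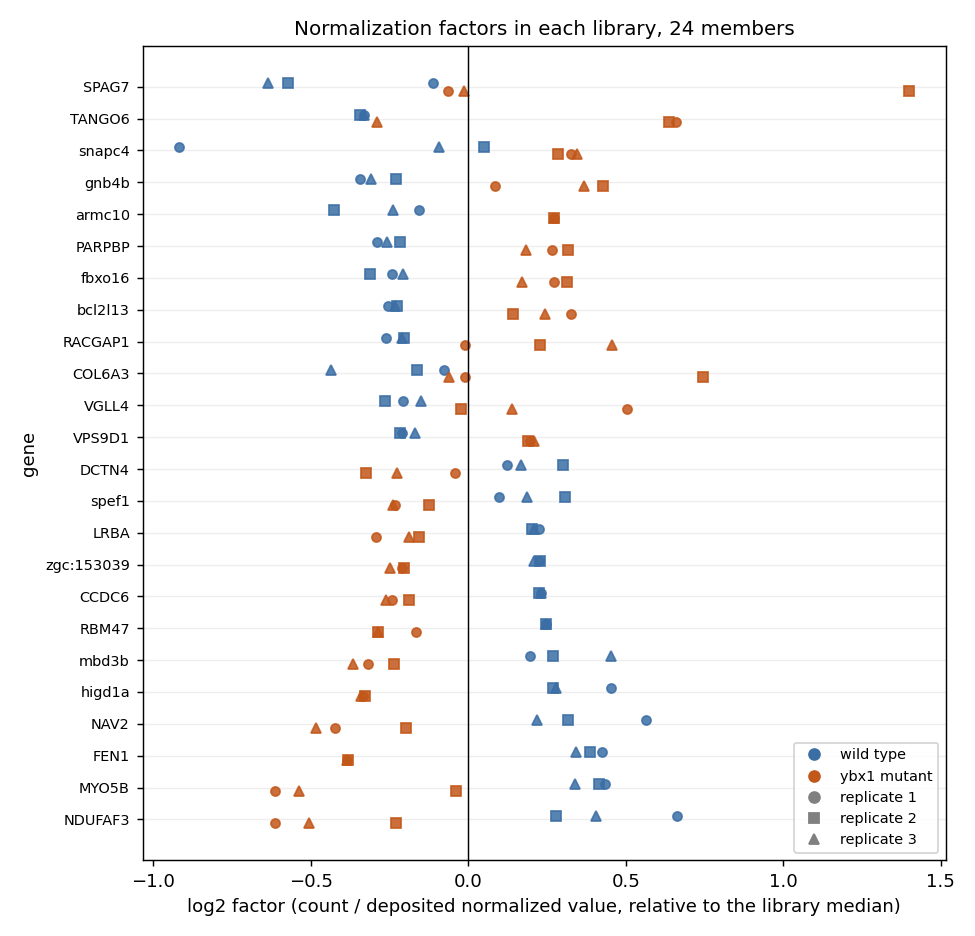
Log2 normalization factors (horizontal axis, relative to the library median) of the 24 members with the largest differences, 12 in each direction. Each point is 1 library, blue for wild type and orange for the mutant, with a symbol for each replicate number. FEN1 and higd1a have the genotypes on opposite sides of 0, whereas in SPAG7 the value of 1.40 in mutant replicate 2 stands apart from all others.

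Among the 35 members with a lower factor in the mutant, normalization raised the mutant relative to wild type. FEN1, the flap endonuclease that trims Okazaki fragments during DNA replication, is the clearest of them. Its log2 factors were 0.43, 0.39 and 0.34 in wild type (replicates 1 to 3 in order) and -0.38, -0.38 and -0.39 in the mutant. Its CPM were 168, 155 and 174 in wild type and 157, 157 and 165 in the mutant, which overlap, with a ratio of means of 0.962. Its normalized counts were 3112, 2945 and 3464 in wild type and 5084, 5122 and 5339 in the mutant, so that every mutant library lay above every wild-type library, with a ratio of 1.63. The fitted log2 fold change of mutant over wild type was -0.05 (standard error 0.06) from counts alone and 0.71 (standard error 0.07) when the deposited factors were given to edgeR as offsets. FEN1 was called higher in the mutant with the factors and not called without them. The rule chose FEN1 by these factors, so its change of call follows largely from the choice. The same holds for the fits of other members below.

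The mitochondrial protein gene higd1a, of the hypoxia-inducible HIG1 family, had the same form. Its log2 factors were 0.45, 0.27 and 0.28 in wild type (replicates 1 to 3 in order) and -0.33, -0.33 and -0.34 in the mutant. Mean CPM were 61.1 ± 3.31 in wild type and 63.0 ± 5.06 in the mutant (SD, n = 3 each), and mean normalized counts were 1208 ± 26.4 in wild type and 1977 ± 159 in the mutant (SD, n = 3 each). CPM overlapped between the genotypes and the normalized counts did not. NDUFAF3, an assembly factor of respiratory complex I, had the greatest absolute difference in factor, -0.90. Its factors of 0.66, 0.28 and 0.41 in wild type (replicates 1 to 3 in order) and -0.61, -0.23 and -0.50 in the mutant were more scattered. Its CPM were 21.998, 18.4 and 23.1 in wild type and 27.8, 23.5 and 24.7 in the mutant, and its normalized counts 345, 377 and 438 in wild type and 1059.8, 691 and 867 in the mutant. The ratio went from 1.198 to 2.26, without overlap on either scale.

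In some members counts and factors pointed the same way, and normalization enlarged a difference that was already there. The CPM of mbd3b, whose mammalian counterpart is a subunit of the NuRD chromatin remodelling complex, were 13.9, 14.1 and 13.1 in wild type and 26.7, 28.3 and 26.6 in the mutant. The ratio of means was 1.99 by CPM, just inside the limit of the rule, and 3.02 by normalized counts. Without wild-type replicate 1 or 2 or mutant replicate 1 or 3, mbd3b no longer met the rule, because its CPM ratio then passed 2. Its factors were well apart, with a gap of 0.43 between the genotypes. The RNA-binding protein gene RBM47 had CPM of 8.55, 6.69 and 7.91 in wild type and 14.7, 14.98 and 15.15 in the mutant. Its ratio was 1.94 by CPM and 2.73 by normalized counts, and its wild-type factors were alike, at 0.25 in each library. Without wild-type replicate 1, RBM47 too fell outside the rule by its CPM ratio. Both genes were higher in all mutant libraries on either scale.

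In others the factor offset the count. MYO5B, an unconventional myosin that moves recycling endosomes, had CPM of 19.6, 17.3 and 16.7 in wild type and 9.28, 11.2 and 8.61 in the mutant, without overlap. Its normalized counts were 360.3, 322 and 333 in wild type and 353, 287 and 308 in the mutant, which overlap, and the ratio went from 0.542 to 0.935. The fitted log2 fold change was -0.89 (standard error 0.11) from counts and -0.10 (standard error 0.10) with the factors. The dynactin subunit gene DCTN4 had a CPM ratio of 0.629 and a normalized ratio of 0.831. For spef1, which encodes a microtubule-binding protein of cilia and flagella, these ratios were 0.528 and 0.693. The libraries of DCTN4 and spef1 did not overlap between genotypes on either scale. The mean count of spef1 was 200, at the limit of the rule. Without wild-type replicate 1 or 3 or mutant replicate 3, spef1 no longer met the rule.

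CCDC6 (ENSDARG00000017595), a coiled-coil protein gene known in human tumours as a fusion partner of RET, was called in opposite directions from the 2 scales, the only 1 of the 10454 genes for which this held at an adjusted p-value under 0.05 in each edgeR fit. Its log2 factors were 0.23, 0.22 and 0.23 in wild type (replicates 1 to 3 in order) and -0.24, -0.19 and -0.26 in the mutant. Its CPM were 98.0, 104 and 93.3 in wild type and 78.7, 84.8 and 86.8 in the mutant, all lower in the mutant, and its normalized counts were 2075, 2209 and 2001 in wild type and 2313, 2421 and 2569 in the mutant, all higher in the mutant. The log2 fold change was -0.23 (standard error 0.06) from counts and 0.22 (standard error 0.06) with the factors. NAV2, a neuron navigator gene, led the members whose ratio lay well off 1 in opposite directions (a CPM ratio of 0.860 and a normalized ratio of 1.44), but its CPM overlapped. The vesicle traffic gene LRBA (1.03 and 1.38) and zgc:153039 (1.05 and 1.42) had CPM that overlapped and normalized counts that did not.

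Among the 44 members with a higher factor in the mutant, normalization lowered the mutant. PARPBP, whose product binds PARP1 and restrains homologous recombination, had log2 factors of -0.29, -0.22 and -0.26 in wild type (replicates 1 to 3 in order) and 0.27, 0.32 and 0.18 in the mutant. Its CPM were 84.0, 92.0 and 95.2 in wild type and 86.7, 88.2 and 73.0 in the mutant, and its normalized counts 2557, 2653 and 2861 in wild type and 1794, 1777 and 1591 in the mutant. CPM overlapped, while all normalized mutant values lay below the wild-type ones, and the ratio went from 0.914 to 0.639. VPS9D1, which encodes a protein with a VPS9 domain as found in activators of Rab GTPases, had factors that were alike within each genotype, at -0.21, -0.22 and -0.17 in wild type (replicates 1 to 3 in order) and 0.20, 0.19 and 0.21 in the mutant. Its mean CPM were 226 ± 4.62 in wild type and 188 ± 8.05 in the mutant (SD, n = 3 each), and its mean normalized counts 6463 ± 88.5 in wild type and 4071 ± 141 in the mutant (SD, n = 3 each). VPS9D1 was lower in every mutant library on both scales, by a larger ratio after normalization (0.630 against 0.831).

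A pair of genes for mitochondrial proteins took part in this direction too. The armadillo-repeat gene armc10 had a factor of 0.27 in each mutant library and of -0.15, -0.43 and -0.24 in wild type. Its CPM ratio was 0.953 and its normalized ratio 0.647. For bcl2l13, a Bcl-2 family gene of the outer mitochondrial membrane, mean CPM were 108 ± 3.90 in wild type and 105 ± 4.86 in the mutant (SD, n = 3 each), and mean normalized counts were 3169 ± 83.9 in wild type and 2227 ± 201 in the mutant (SD, n = 3 each). In both genes CPM overlapped and normalized counts did not. The F-box gene fbxo16 (CPM ratio 1.06, normalized ratio 0.745) and LIN28A (ENSDARG00000016999), an RNA-binding protein gene known for blocking the maturation of some miRNAs (1.01 and 0.787), followed the same course.

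Genes with large count differences were also moved. The G-protein beta subunit gene gnb4b had CPM of 16.3, 17.7 and 16.2 in wild type and 9.66, 7.97 and 8.61 in the mutant. Its ratio of 0.522 by CPM became 0.352 by normalized counts, the lowest of all members on the second scale. Conversely bmal2, a transcription factor gene of the circadian clock, had CPM of 58.2, 63.2 and 65.5 in wild type and 117, 105 and 112 in the mutant, and its ratio shrank from 1.79 to 1.38. SPIRE2, an actin nucleator gene whose mouse counterpart acts in polar body formation of the oocyte, went from 1.66 to 1.38. For gnb4b, bmal2 and SPIRE2 the genotypes did not overlap on either scale. The most abundant member by count was si:dkey-229d11.3, with CPM of 1246, 1328 and 1418 in wild type and 1720.2, 1754 and 1785 in the mutant and a ratio of 1.32 that became 1.12.

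**Figure D2:**
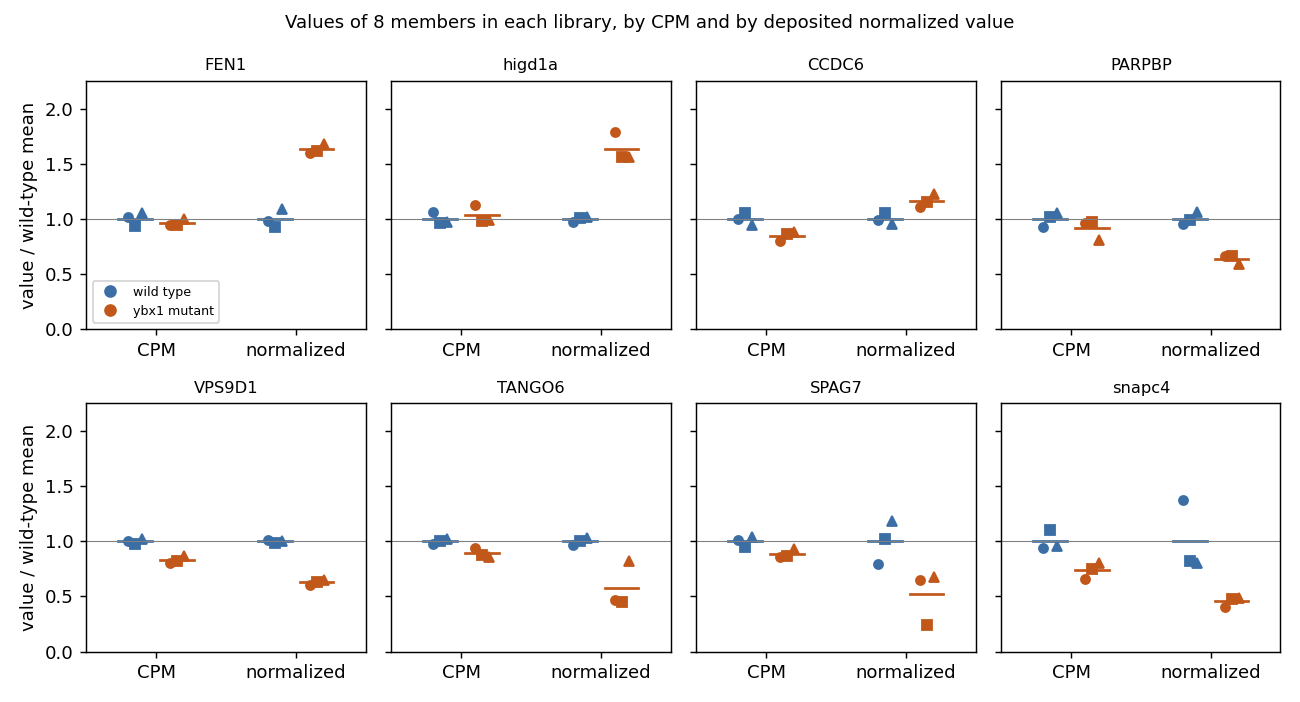
CPM and deposited normalized counts of 8 members in each library, divided by the wild-type mean on the same scale (vertical axis, linear from 0). Points are libraries (circle, square and triangle for replicates 1 to 3) and bars are means; FEN1 and higd1a separate by genotype only after normalization, CCDC6 changes side, and in TANGO6 and SPAG7 the mutant libraries spread apart.

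In several members the factor of 1 library lay far from the others of its genotype. A library was taken to stand apart where its log2 factor lay more than 0.3 beyond those of both other libraries of its genotype, which occurred 19 times in 18 members. Mutant replicate 2 accounted for 7 of the 19 and wild-type replicate 1 for 5. Over the 10454 genes these libraries stood apart in 115 and 98 genes, and the others in 66 to 109. SPAG7, named for a sperm-associated antigen, had log2 factors of -0.11, -0.57 and -0.64 in wild type (replicates 1 to 3 in order) and -0.07, 1.40 and -0.01 in the mutant. Its CPM were 79.3, 73.9 and 81.0 in wild type and 66.8, 67.4 and 72.7 in the mutant, so that mutant replicate 2 resembled its mates, but its normalized counts were 2131, 2725 and 3166 in wild type and 1740.1, 641 and 1815 in the mutant. The normalized count of mutant replicate 2 was thus far below all others.

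TANGO6, which encodes a protein of transport and Golgi organization, behaved in a like manner. Its factors were -0.33, -0.34 and -0.33 in wild type (replicates 1 to 3 in order) and 0.66, 0.64 and -0.29 in the mutant, which places mutant replicate 3 beside wild type and the other mutant libraries far from it. Its CPM were 91.8, 94.5 and 96.2 in wild type and 88.4, 82.8 and 80.4 in the mutant, and its normalized counts 2871, 2976 and 3048 in wild type and 1394, 1335 and 2430.1 in the mutant. For snapc4, a subunit gene of the complex that activates snRNA transcription, wild-type replicate 1 had a factor of -0.92 against 0.05 and -0.09 in the other wild-type libraries. Its CPM were 65.1, 76.4 and 66.6 in wild type and 45.7, 51.8 and 56.0 in the mutant, and its normalized counts 3058, 1830.3 and 1787 in wild type and 906, 1066 and 1089 in the mutant. The genotypes did not overlap on either scale in SPAG7, TANGO6 and snapc4.

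COL6A3, a collagen VI chain gene, was separated by genotype by CPM and not by normalized counts. Its CPM were 10.7, 13.0 and 10.8 in wild type and 13.3, 17.5 and 16.0 in the mutant, higher in all mutant libraries, with a ratio of 1.36. Its normalized counts were 281, 359 and 367 in wild type and 333, 261 and 414 in the mutant, which overlap, with means of 336 ± 47.6 and 336 ± 76.3 (SD, n = 3 each). The factor of mutant replicate 2 was 0.75, against -0.01 and -0.06 in its mates. Without mutant replicate 2, COL6A3 no longer met the rule. RACGAP1, a subunit gene of centralspindlin that is needed for cytokinesis, had mutant factors of -0.01, 0.23 and 0.46, all above the wild-type values of -0.26, -0.20 and -0.21. Its CPM were 132, 139.6 and 132 in wild type and 144, 144 and 147 in the mutant, and its normalized counts 3929, 3990.3 and 3837 in wild type and 3598, 3077 and 2642 in the mutant, so that the mutant was above wild type on the first scale and below it on the second.

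The spread between replicates was compared on both scales, since the factors also differ within a genotype. The pooled within-genotype SD of log2 values was larger for normalized counts than for CPM in 52 of the 79 members (65.8%), against 5613 of the 10454 genes (53.7%). Its median over the members was 0.108 for CPM and 0.145 for normalized counts, and over all 10454 genes 0.088 and 0.093. For SPAG7 it went from 0.07 to 0.63 and for TANGO6 from 0.06 to 0.34. The opposite was seen in GRAMD1C, a sterol transfer protein gene (0.30 to 0.16), and in the collagen IV chain gene col4a6 (0.21 to 0.08). In col4a6, wild-type replicate 2 was low by CPM at 11.9, against 17.4 and 15.8 in its mates, and had a factor of -0.52 against 0.10 in each of them. The mutant factors of col4a6 were 0.107, 0.103 and 0.103, and the gap between its genotypes was only 0.00018. Without wild-type replicate 2, col4a6 no longer met the rule, nor did GRAMD1C without mutant replicate 2. Of the 19 cases of a library that stood apart, it lay farther from its mates by normalized count than by CPM in 14 and nearer in 5. These cases were chosen by the factor, which is what separates the scales, so this count follows largely from the choice. The members too were chosen by their factors, and their share of 65.8% carries no test.

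**Figure D3:**
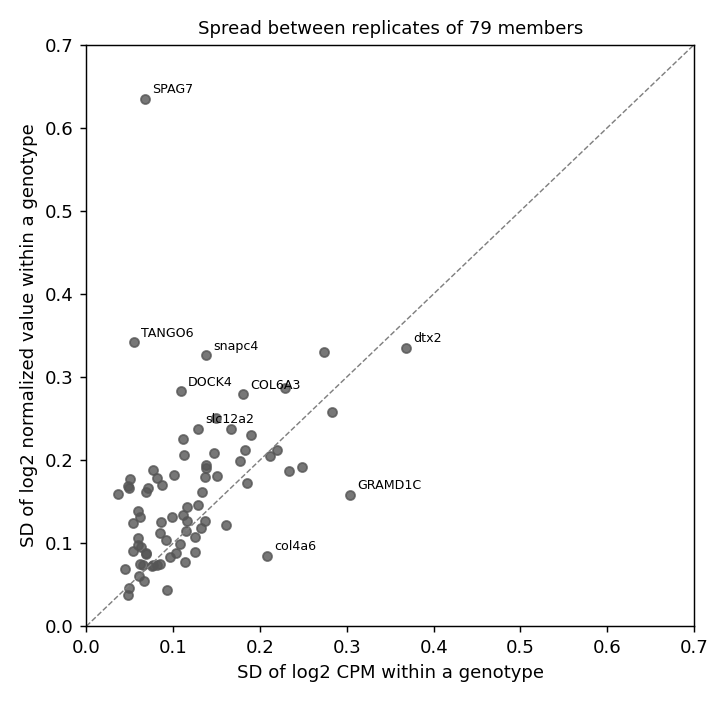
Pooled within-genotype standard deviation of log2 CPM (horizontal) and of log2 normalized counts (vertical) for each of the 79 members. Points above the dashed line of equality, 52 of 79, spread more between replicates after normalization; SPAG7 and TANGO6 lie far above it, and GRAMD1C and col4a6 below.

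The genotype ratio of the members as a group was centred near 1 before normalization. With a higher factor in the mutant, the median log2 ratio of mutant over wild type was 0.03 by CPM and -0.26 by normalized counts, and 31 of the 44 members were below 1 on the second scale against 19 on the first. With a lower factor, the medians were -0.10 and 0.21, and 28 of 35 members were above 1 after normalization against 13 before. Over the 10454 genes the medians were -0.04 on each scale. This shift follows from the selection. The number of members whose ratio lay on opposite sides of 1 on the scales was 27 (34.2%), against a background of 3.45%. Of 29 members with CPM within 1.1-fold between genotypes, 20 differed by at least 1.2-fold in normalized counts, and among all 4904 such genes 58 did (1.18%). Both excesses over the background likewise follow from the selection, since each member has a factor difference of at least 0.2.

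**Figure D4:**
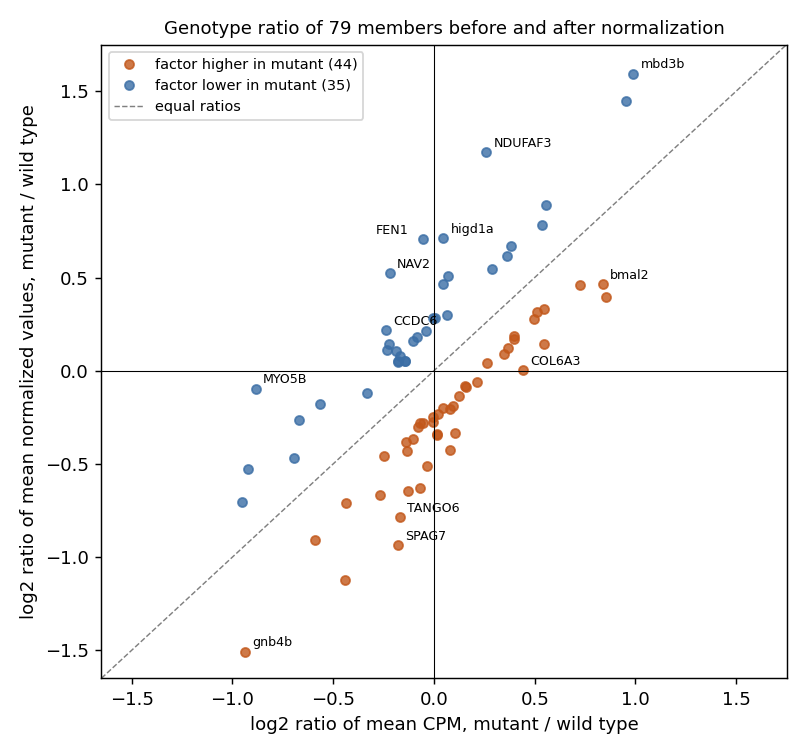
Log2 ratio of mutant to wild-type means by CPM (horizontal) and by deposited normalized counts (vertical) for the 79 members, coloured by the direction of the factor difference. Members above the dashed line of equality have a lower factor in the mutant and those below it a higher one; the upper left and lower right quadrants hold the 27 members whose ratios lie on opposite sides of 1, such as CCDC6 and NAV2.

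Which members passed a test across all genes differed between the scales. In edgeR's quasi-likelihood test of counts, 17 members passed as higher in the mutant and 13 as lower, at an adjusted p-value under 0.05. The background over the 10454 genes was 15.1% higher and 19.6% lower (34.7% in all, and 33.9% of the 17385 genes tested). With the deposited factors as offsets, 20 members were called higher and 21 lower, against 13.1% and 18.4% of the 10454 genes (31.5% in all, and 30.7% of all genes tested). Nothing is read from these counts, since the rule used the same contrast. The call itself differed between the fits in 32 members (40.5%) and in 552 of the 10454 genes (5.28%). This excess too follows from the selection, since the factors that the rule used are what separates the fits. Of the 32, 21 were called only with the factors, 10 only without them, and CCDC6 with both in opposite directions. The 10 called only from counts were MYO5B, spef1, DCTN4, DEF8 and PRMT3 (lower) and ASPHD2, enox2, si:dkey-229d11.3, VGLL4 and COL6A3 (higher). The 7 called higher only with the factors were NDUFAF3, FEN1, NAV2, higd1a, zgc:153039, LRBA and tarbp1, and PARPBP, bcl2l13, armc10, fbxo16, RACGAP1 and TANGO6 were among the 14 called lower only with them. SPAG7, with the greatest positive factor difference, was called in neither fit with all libraries, but from counts without wild-type replicate 2. COL6A3 was no longer called from counts when wild-type replicate 1 or 3 or mutant replicate 2 or 3 was left out, and TANGO6 was called lower from counts without mutant replicate 1.

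Many members did not overlap between genotypes, as is common in these data. CPM did not overlap between genotypes in 47 members (59.5%), against 48.7% of the 10454 genes. Normalized counts did not overlap in 51 (64.6%), against 46.9%. The rule required factors without overlap, and normalized counts are counts divided by them, so nothing is read from these shares. For IGF1R (ENSDARG00000027423), the receptor gene of an insulin-like growth factor, CPM were 23.9, 28.8 and 26.4 in wild type and 23.7, 22.9 and 21.2 in the mutant, without overlap. Its normalized counts were 516, 619.8 and 599 in wild type and 702, 628 and 589.9 in the mutant, with overlap. TRIQK, a gene of an endoplasmic reticulum protein, went from a CPM ratio of 1.09 to a normalized ratio of 0.911 with no overlap on either scale. FRMD4B (0.852 and 1.08) and CAPN10, a calpain protease gene (0.878 and 1.08), overlapped on both.

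The members came from many kinds of gene. Sorted by known function after their values had been seen, 18 belonged to membrane traffic and the cytoskeleton, with a higher factor in the mutant in 10 and a lower one in 8. There were 11 genes of RNA processing, transcription and chromatin (6 higher, 5 lower), 9 of DNA replication, repair and cell division (4 higher, 5 lower) and 9 of lipid, sugar and ion metabolism or transport (4 higher, 5 lower). A further 6 encode mitochondrial proteins (3 in each direction), 5 act in signalling and 3 in the extracellular matrix or adhesion, and 18 were left without a group. In none of the 4 largest groups did all factors move one way. The ratio changed side between the scales in 27 members, or 34.2% of all. Of these, 6 were among the 9 genes of replication and division and 3 among the 5 of signalling. Traffic and the cytoskeleton held 5, the RNA and chromatin group 4 and the matrix group 1, and 8 were without a group. None was among the metabolic or mitochondrial genes. The groups were small and made with the values known, so no pattern is read from these counts.

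Lists of genes for splicing, 3′-end processing and mRNA decay held 2 members among 187 genes that met the count criteria (1.07%), near the 0.756% over all such genes. Among 119 genes of splicing factors, of which 100 met the count criteria, RBM47 was a member. CNOT7, a deadenylase gene of the CCR4-NOT complex, was the member among 68 genes of mRNA decay and storage. Its normalized counts were 689, 690.0 and 726 in wild type and 711, 937 and 702 in the mutant, and its factor of -0.36 in mutant replicate 2 stood apart from -0.02 and 0.01 in the others. The gap between its genotypes was only 0.0076, and without mutant replicate 2 CNOT7 no longer met the rule. No gene was a member among the lists of 3′-end processing (23 genes), ribosomal proteins (81), translation factors (88), the cell cycle (88), oocyte markers (19), follicle cell markers (17) and markers of blood, vessels and stroma (16). Only genes that met the count criteria could be members. These were 18 of the oocyte markers, 7 of the follicle cell markers and 6 of the blood, vessel and stroma markers. Among the 64 cell cycle genes that met them, the largest absolute factor difference was 0.094. It was 0.041 among such oocyte markers and 0.045 among such follicle cell markers, well under the limit of 0.2.

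Over all 17385 genes tested in counts, edgeR called 18.6% higher and 15.3% lower in the mutant (33.9% in all), and the lists are described beside these shares. It called 15 of 114 tested splicing factor genes higher and 11 lower (median log2 fold change -0.01). It called 3 of 67 genes of mRNA decay and storage higher and 11 lower (median -0.03), 2 of 23 genes of 3′-end processing higher and 5 lower (median -0.06), and 2 of 80 ribosomal protein genes higher and 0 lower (median 0.04). Of 84 translation factor genes 8 were higher and 14 lower (median -0.06), and of 84 cell cycle genes 12 were higher and 18 lower (median -0.08). Of 19 oocyte markers 0 were higher and 2 lower (median 0.03). Of 17 genes listed as follicle cell markers 8 were higher and 2 lower (median 0.49). Summed over the 17, the level was 519 to 551 CPM in wild type and 549 to 577 CPM in the mutant, which overlap. The 2 lower were CYP11A1 (ENSDARG00000002347, log2 fold change -0.19) and foxl2l (-2.37). Whether foxl2l marks follicle cells here was not tested, so its fall is not read as a change in them. The median over all 17385 genes was 0.01. In 6 listed genes that were no members (RPL21, eif5a, EIF5A2, PUM2, G3BP2 and SCAF4) the difference in factor was at least 0.2 but the genotypes overlapped. The ribosomal protein gene RPL21 had a factor of -0.70 in wild-type replicate 1 and of 0.11 to 0.17 in the other 5 libraries. SCAF4 (ENSDARG00000077093), of a protein that binds RNA polymerase II, had factors of 0.21 to 0.22 in the wild-type libraries and mutant replicate 1, but of -0.42 and -0.44 in mutant replicates 2 and 3. Another gene with the symbol SCAF4 (ENSDARG00000018854) had factors of -0.016 to 0.015 and a factor difference of 0.0008.

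Of the 79, 60 could be placed in the RefSeq gene order of assembly GRCz12tu by name, and 1 pair, TRIQK and RUNX1T1, lay within 5 genes of each other, as direct neighbours. Both had a higher factor in the mutant, by 0.25 and 0.23. The number of such pairs among 60 genes placed at random was not worked out, so nothing is read from this pair. RUNX1T1 is a gene of a transcriptional corepressor, and its factors were -0.03, -0.20 and -0.11 in wild type and 0.01, 0.08 and 0.26 in the mutant. Without wild-type replicate 2 or mutant replicate 3, RUNX1T1 no longer met the rule. A gene symbol was known for 78 members, and 12 of these carry a symbol that another listed gene also has. Reads may have been shared between genes of the same symbol, which was not tested.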

How the data were processed

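RNA of pre-vitellogenic follicles was measured in 3 wild-type and 3 ybx1 mutant libraries, made with a directional kit after TRIzol extraction per the labels' protocols. The submitters' processing notes list HISAT2, StringTie, DESeq2 and build GRCz11, without roles; the counting rule and annotation release are not given in the sources used here. One deposited table gives raw counts of reads per Ensembl gene in whole numbers. The other gives the authors' normalized counts, a signal on the scale of counts, and count over normalized value gave the factor.

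Counts were tested with edgeR 4.0.16 (R 4.3.3; quasi-likelihood, TMM factors, filterByExpr, Benjamini-Hochberg adjustment over 17385 genes, unpaired), and again with the deposited factors as offsets, where a library with 0 counts took its median factor. Alternatives were DESeq2 1.42.0, limma-trend (limma 3.58.1, log2 of the normalized value plus a pseudocount of 1), other filters and rule limits, the replicate number as a block, and leaving out each library. The fits were tested on simulated data. Libraries of 1 genotype differed beyond sampling noise (chi-square per degree of freedom at least 5.31) and counted separately. Same-numbered libraries had deviations correlated at 0.306, 0.0936 and 0.262, and were not treated as pairs.

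Members and lists were chosen with earlier results of these data known. Genes named are the 12 with the largest factor difference in each direction, list members and the 6 clearest changes of side between the scales; others were chosen after their values were seen. Symbols come from a table of identifiers (28988 of 32057 matched); capitals are as in that table.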

Additional observations from a re-analysis of the deposited data

How the results depend on the processing

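The number of members depended on the limits. A factor difference of at least 0.1 gave 212 genes and 0.3 gave 35, and a mean count of at least 500 gave 49. Leaving out 1 library gave from 126 to 144 genes. Fewer libraries then have to be free of overlap, and the means used by the rule change as well. The part of each was not tested. Between 69 and 74 of the 79 were still among these genes, and 43 members met the rule whichever library was left out. With the deposited factors as offsets and with limma-trend on normalized values, 21 members were called lower in each, against 13 from counts. The median log2 ratio of normalized counts over members with a higher factor ranged from -0.28 to -0.23 when 1 library was left out. CCDC6 reversed to a log2 fold change of 0.22 with the offsets and 0.22 with limma-trend. COL6A3 went from 0.45 from counts to near 0, at 0.011 with the offsets and -0.013 with limma-trend, and was called in neither. For the named members, the settings that use counts only gave 290 fold changes, of which 4 changed sign, all in uncalled genes near 0 (higd1a, zgc:153039, LRBA and bcl2l13), and 12 changed the call. COL6A3 was no longer called without wild-type replicate 1 or 3 or mutant replicate 2 or 3. SPAG7 became called without wild-type replicate 2, TANGO6 without mutant replicate 1 and IGF1R without wild-type replicate 1. SPAG7 and TANGO6 were also called with DESeq2 size factors, TANGO6 with DESeq2, and SPAG7 and NDUFAF3 with the block. With the offsets or limma-trend, 21 of 58 fold changes changed sign and 34 the call. Both settings use the factors by which the members were chosen, so these changes follow largely from the rule. With offsets and 1 library left out, a setting chosen after seeing the data, from 28 to 35 of the 41 called members stayed called. A replicate block raised the calls from 5890 to 6110, and pair 2 did not reach the correlation of 0.1 set for pairing.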

Other observations

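Genes whose factors split by genotype but whose CPM differed more than 2-fold were left out by the rule. There were 12, with a CPM ratio above 2 in 8 and below 0.5 in 4. FN1, a fibronectin gene of the extracellular matrix, had CPM of 14.4, 14.8 and 16.2 in wild type and 51.7, 49.3 and 55.0 in the mutant, a ratio of 3.44 that was 2.46 by normalized counts. Among these 12 the largest factor difference of either sign was that of syne1b, which encodes a protein linking nucleus and cytoskeleton, at -1.53. Its log2 factors were 1.19, -0.08 and 1.19 in wild type (replicates 1 to 3 in order) and -0.97, -0.72 and -0.60 in the mutant, and its ratio was 2.47 by CPM and 5.95 by normalized counts. The lipid transporter gene ABCA4 went from 3.35 to 1.54, and RIN2, of a Rab GTPase effector, from 4.41 to 1.70. ADCY8, an adenylyl cyclase gene, had CPM of 18.4, 18.4 and 22.2 in wild type and 2.203, 2.14 and 2.17 in the mutant, and the same factor, 0.25, in each mutant library. In these genes the direction by CPM was kept after normalization, while its size was not. A CPM difference of more than 2-fold leaves little room for a change of direction, so its keeping follows largely from the limit.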
